A study of Prunus sibirica with 6 samples.

Results

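The HB-KNOX, HB-BELL and OFP families were examined in flower buds of Siberian apricot (Prunus sibirica). Members were all transcript clusters that the deposited regulator table files under these family names, each used once. They numbered 25 of 1508 clusters, with 4 in HB-KNOX, 8 in HB-BELL and 13 in OFP, and no member was filed under a second family. RNA-seq libraries came from whole buds of male sterile clone No. 1 (3 libraries) and male fertile clone No. 60 (3 libraries), all labelled as being at the microspore developmental stage. The labels name no treatment, and give neither the age of the trees nor how many trees the buds of a group were taken from. With a single clone behind each group, sterility cannot be told apart from any other genetic difference between the clones. The p-values measure only the spread between these bud samples, called biological replicates in the labels, and some of that spread may be technical.

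KNOX and BELL proteins are the plant homeodomain factors of the TALE type. They act as KNOX-BELL pairs, and pairing helps them enter the nucleus and bind DNA. In Arabidopsis class I KNOX genes keep meristem cells undifferentiated, whereas class II KNOX genes act in differentiating organs and cell walls. OVATE family proteins (OFPs) are transcriptional repressors that bind KNOX and BELL proteins. They are known from fruit shape in tomato and peach. In Arabidopsis, OFP1 and OFP4 work with the class II protein KNAT7 on secondary walls, and OFP5 restrains a BLH1-KNAT3 pair in the embryo sac.

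The labels of the families were checked against the domain annotation in the table. All 4 HB-KNOX clusters carried the KNOX1, KNOX2, ELK and homeobox domains, and all 8 HB-BELL clusters carried homeobox and homeobox KN domains. The HB-KNOX clusters carried homeobox KN domains too, so these domains do not identify a BELL protein. No HB-BELL cluster carried a KNOX1, KNOX2 or ELK domain, and no further domain was listed for all of them. Of the 13 OFP clusters, 0 had an OVATE domain in the domain column, and for 12 of them the name used is the best Swiss-Prot hit, an Arabidopsis OFP. All of these 12 but Cluster-4615.0 also had a Prunus hit named as an OFP. The remaining OFP cluster (Cluster-6671.10155) matched the WAT1-related membrane transporter At5g64700 and carried an EamA transporter domain. One HB-BELL cluster (Cluster-6671.5385) carried homeobox domains together with a POT transporter domain, and its best Swiss-Prot hit was the nitrate and peptide transporter family protein NPF5.6. The values of these 2 clusters cannot be assigned to an OFP or a BELL gene, and call counts and medians of their families are given with and without them. Other members carried foreign domain names too. BLH1 (Cluster-6671.4913) carried prenylcysteine lyase and several oxidoreductase domains, and Cluster-6671.5272, called KNAT3-type below, a CTP synthase domain. Their best Swiss-Prot hits were BELL and KNOX proteins, so they were kept in all counts. Whether their reads come in part from other genes was not tested. No cluster in HB-KNOX was named BREVIPEDICELLUS or KNAT7. Estimated counts were whole, within 0.005, in all libraries for 18 of 25 members. In KNAT4 (Cluster-6671.12330) and in Cluster-6671.10155 they were fractional in every library, as happens when reads that match several clusters are divided among them.

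Count totals of the regulator table ran from 957196 in sterile replicate 1 to 1424835 in fertile replicate 2. Counts and lengths implied 16.2 to 25.3 M fragments per whole library. Levels below are FPKM (fragment counts scaled by cluster length and by library size), always given for replicates 1, 2 and 3, and means are ± SD over 3 libraries. Differences are log2 fold changes of sterile over fertile buds from edgeR's quasi-likelihood test on the counts, ± SE, scaled by TMM (trimmed mean of M-values) within the regulator table. A call is a Benjamini-Hochberg adjusted p under 0.05 over all 1380 tested clusters. On this scale the median regulator sits at 0.01, and on the whole-library scale that FPKM uses it sits at 0.15. FPKM ratios are therefore about 0.14 log2 units above the edgeR fold changes.

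Across the families, most differences between the clones were small, and those of at least 2-fold were all in OFP clusters. Of 24 tested members, 11 were higher in sterile buds, 2 were lower and 11 were not called. Calls were made for 57.0% of all regulator clusters, 28.0% higher and 28.9% lower, against 54.2% of the members. Without the 2 transporter-like clusters 10 of 22 tested members were higher and 2 lower, with the same median of 0.22. The median difference on the log2 scale was 0.22 for the members and 0.01 for all regulators, and the median size without sign was 0.28 against 0.31. At least 2-fold differences were seen in 3 of 24 members, and in 13.4% of all tested regulators. With the implied whole-library totals the split of all regulators moved from 387 higher and 399 lower to 567 higher and 297 lower, and no called member turned direction. In whole buds, fewer cells of a type and less RNA per cell cannot be told apart.

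**Figure D1:**
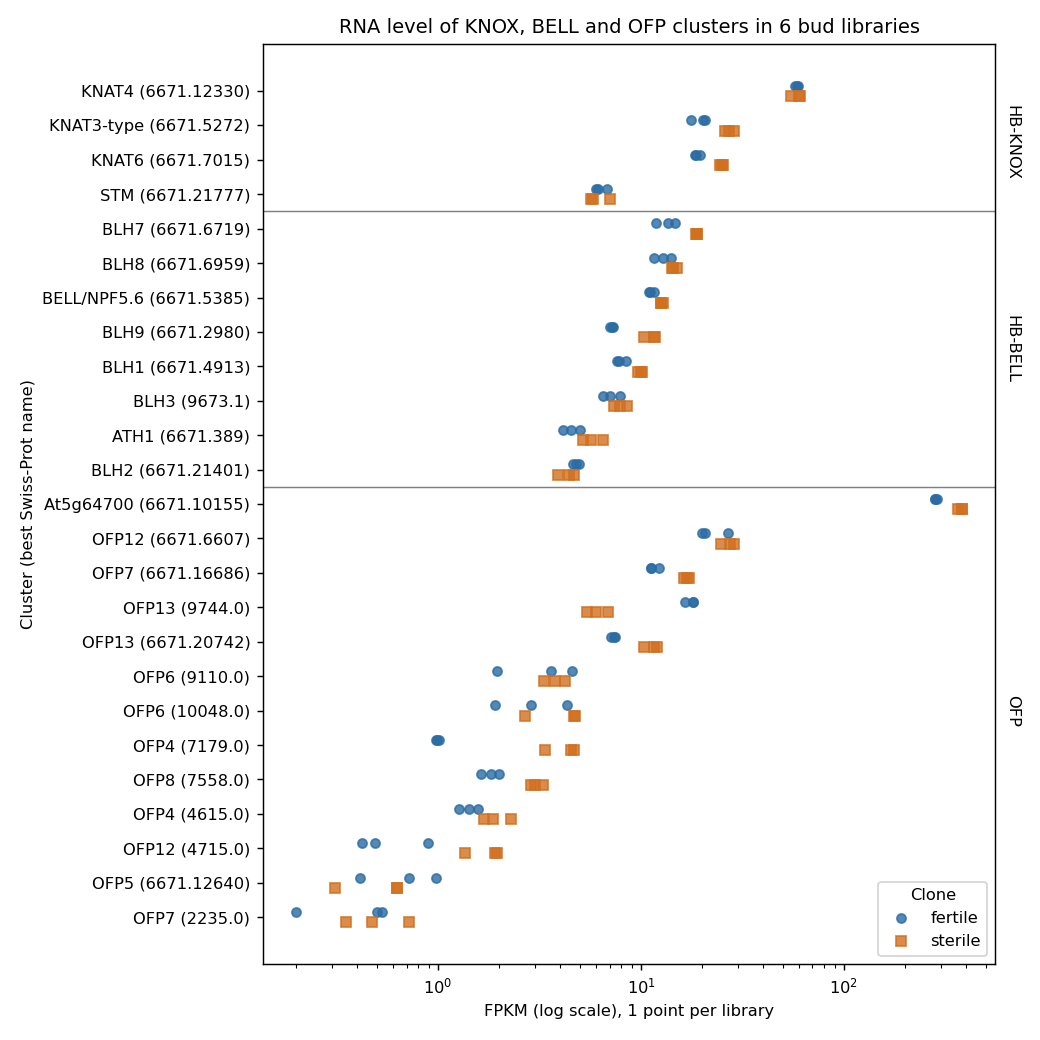
FPKM on a log axis for the 25 clusters, ordered within family by mean level, with 1 point per library (circles fertile, squares sterile). The transporter-like Cluster-6671.10155 stands above all others at 279.7 to 382.6 FPKM, and OFP13 (Cluster-9744.0) and OFP4 (Cluster-7179.0) show the widest gaps between the clones.

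The most abundant HB-KNOX cluster was a class II gene at similar FPKM in both clones. KNAT4 (Cluster-6671.12330), a class II factor that in Arabidopsis acts with KNAT3 in lateral organs, stood at 59.26, 59.02 and 57.17 FPKM in fertile and 59.77, 54.8 and 61.08 FPKM in sterile libraries. The clones overlapped throughout, and the gene took 56.7% ± 0.846 of the summed FPKM of the filed HB-KNOX clusters in fertile and 50.1% ± 0.746 in sterile buds. That sum leaves out 2 knotted-like clusters filed elsewhere, which together held 14.1 ± 0.818 FPKM in fertile and 21.4 ± 0.949 FPKM in sterile buds. KNAT4 had fractional counts in every library. Its log2 fold change of -0.15 ± 0.07 was not called (edgeR adjusted p = 0.0674, 95% interval -0.28 to -0.01). It was called lower without the low-count filter (-0.18), fertile replicate 1 (-0.12) or sterile replicate 3 (-0.20), and its limma estimate on log2(FPKM + 1), a fit that called 49.8% of 21730 expressed clusters, was 0.00.

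The KNAT3-type cluster (Cluster-6671.5272), whose best hit is an apple class II KNOX protein, stood at 17.58, 20.11 and 20.67 FPKM in fertile and 26.99, 25.8 and 28.69 FPKM in sterile buds. Every sterile library lay above every fertile one. By edgeR it was 1.27-fold higher in sterile buds, or 0.34 ± 0.07 on the log2 scale (adjusted p = 0.00039). The balance of the 2 class II genes did not overlap between the clones: the FPKM of KNAT4 was 3.37, 2.93 and 2.77 times that of the KNAT3-type gene in the fertile libraries and 2.21, 2.12 and 2.13 times in the sterile ones. This ratio is taken within a library and does not depend on library scale.

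Among class I genes, KNAT6 (Cluster-6671.7015), which in Arabidopsis acts with SHOOT MERISTEMLESS in meristem upkeep and organ separation, stood at 19.46, 18.69 and 18.43 FPKM in fertile and 25.1, 24.61 and 25.35 FPKM in sterile buds. The clones did not overlap, and replicates of a clone lay close together. KNAT6 was 1.19-fold higher in sterile buds by edgeR, or 0.25 ± 0.08 on the log2 scale (adjusted p = 0.00925). SHOOT MERISTEMLESS (STM, Cluster-6671.21777), the class I gene that maintains the shoot meristem, was the least abundant of the 4 KNOX clusters, at 6.77, 5.97 and 6.15 FPKM in fertile and 5.65, 5.77 and 7.05 FPKM in sterile buds. Its clones overlapped, and its log2 fold change was -0.18 ± 0.11 (not called, edgeR adjusted p = 0.206, 95% interval -0.42 to 0.07). Without sterile replicate 3, its highest library, it was called lower at -0.31. The FPKM of KNAT6 was 2.87, 3.13 and 3 times that of STM in fertile libraries and 4.44, 4.27 and 3.6 times in sterile ones, without overlap.

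In HB-KNOX as a whole edgeR called 2 of 4 clusters higher, 0 lower and 2 not at all, beside 57.0% called among all regulators. At an unadjusted p under 0.05 edgeR had 2 higher and 1 lower (KNAT4), beside 421 higher and 429 lower of 1380 regulators. DESeq2 called 2 higher and 0 lower, beside 716 of 1508 regulators. No KNOX cluster reached 2-fold in either fit. The summed FPKM of the 4 clusters was 103.07, 103.79 and 102.42 in fertile and 117.51, 110.98 and 122.17 in sterile libraries. Summed class I FPKM was 25.2 ± 0.93 against 31.2 ± 1.08, and summed class II FPKM 77.9 ± 1.15 against 85.7 ± 4.67. A pair of further clusters with knotted-like names is filed in the table under other homeobox genes and so lies outside the family. Of these, a cluster named KNAT6 by Swiss-Prot and knotted-1-like 2 in Prunus mume (Cluster-6671.17970) stood at 2.86, 3.17 and 2.87 FPKM in fertile and 5.35, 5.41 and 5.27 FPKM in sterile buds. The other, whose nucleotide hit is the peach gene KNOPE1 (Cluster-6671.11013), stood at 10.89, 11.88 and 10.67 against 15.01, 16.76 and 16.49 FPKM. Both were higher in sterile buds, at 0.71 ± 0.08 and 0.39 ± 0.07 on the log2 scale (edgeR adjusted p = 7.41e-07 and 0.000143). Cluster-6671.17970 carried the KNOX1, KNOX2, ELK and homeobox domains, whereas Cluster-6671.11013 carried KNOX1 and KNOX2 but no ELK or homeobox domain. With both included, 3 of 4 class I clusters were higher and STM was not called, beside 28.0% higher among all regulators. The summed class I FPKM was then 39.3 ± 1.01 in fertile and 52.6 ± 1.53 in sterile buds.

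The BELL genes were of even abundance, from 4.54 FPKM for BLH2 to 16 FPKM for BLH7 as means over the 6 libraries, and every edgeR fold change on the TMM scale was under 1.5-fold. BLH9 (Cluster-6671.2980), known in Arabidopsis as PENNYWISE or REPLUMLESS, a partner of STM and BREVIPEDICELLUS in inflorescence and fruit patterning, showed the clearest difference. It stood at 7.18, 7.25 and 7.05 FPKM in fertile and 10.34, 11.72 and 11.54 FPKM in sterile buds. The clones were well apart, and the fertile libraries nearly equal. BLH9 was 1.42-fold higher in sterile buds by edgeR (0.50 ± 0.08 on the log2 scale, adjusted p = 3.82e-05).

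BLH7 (Cluster-6671.6719), a BEL1-like factor and the most abundant BELL cluster, stood at 11.79, 14.63 and 13.51 FPKM in fertile and 18.56, 18.81 and 18.77 FPKM in sterile buds. Its sterile libraries were nearly equal and all above the fertile ones. By edgeR the gene was 1.28-fold higher (0.35 ± 0.07 on the log2 scale, adjusted p = 0.000331). BLH1 (Cluster-6671.4913), which pairs with KNAT3 in Arabidopsis and acts in abscisic acid responses, stood at 7.63, 7.79 and 8.45 FPKM against 9.7, 10.08 and 10.01 FPKM. The clones did not overlap, but the fold change of 0.18 ± 0.07 (edgeR adjusted p = 0.0254) lost its call with DESeq2 (0.17) and without the low-count filter (0.15). It was also not called when fertile replicate 2 was left out (0.15), or when sterile replicate 2 (0.14) or 3 (0.15) was.

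The cluster named BLH2 by Swiss-Prot (Cluster-6671.21401) was the only BELL cluster called lower. Its Prunus mume nucleotide hit is called BEL1-like homeodomain protein 4. In Arabidopsis BLH2 is SAWTOOTH1 and BLH4 is SAWTOOTH2, which together limit KNOX activity at leaf margins. The cluster stood at 4.93, 4.77 and 4.61 FPKM in fertile and 4.4, 4.68 and 3.88 FPKM in sterile buds, and sterile replicate 2 lay within the fertile range. Its log2 fold change of -0.29 ± 0.10 (edgeR adjusted p = 0.0187) was not called with the implied whole-library totals (-0.15), with limma on log2(FPKM + 1) (-0.12), or without sterile replicate 1 (-0.28) or sterile replicate 3 (-0.24).

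The other 4 BELL clusters were not called. The cluster named BLH8 by Swiss-Prot (Cluster-6671.6959) is called BEL1-like homeodomain protein 9 in both of its Prunus mume hits, at another locus than the BLH9 cluster. In Arabidopsis BLH8 is POUND-FOOLISH, which acts with BLH9 in the floral transition. The cluster stood at 11.53, 14.02 and 12.86 FPKM in fertile and 15.09, 14.28 and 14.43 FPKM in sterile buds, with a log2 fold change of 0.05 ± 0.07 (95% interval -0.10 to 0.19). Its FPKM did not overlap between the clones, although the margin was small. The FPKM of BLH9 was 0.623, 0.517 and 0.548 times that of the BLH8 cluster in fertile and 0.685, 0.821 and 0.8 times in sterile libraries, without overlap. ATH1 (Cluster-6671.389), a repressor of flowering and organ boundary factor in Arabidopsis, stood at 4.55 ± 0.446 against 5.79 ± 0.686 FPKM (log2 fold change 0.20 ± 0.10, 95% interval -0.01 to 0.41). It was called higher with the implied whole-library totals (0.34) and without fertile replicate 2 (0.27). BLH3 (Cluster-9673.1) stood at 7.14 ± 0.69 against 7.95 ± 0.56 FPKM (0.02 ± 0.09, 95% interval -0.17 to 0.21). The NPF5.6-like cluster stood at 11.2 ± 0.347 against 12.6 ± 0.139 FPKM (0.03 ± 0.06, 95% interval -0.10 to 0.16). On the whole-library scale BLH8 (0.18) and the NPF5.6-like cluster (0.17) were called higher as well.

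In HB-BELL 3 of 8 clusters were higher, 1 lower and 4 not called, or 3 higher and 1 lower of 7 without the NPF5.6-like cluster. Among all regulators 57.0% were called, 28.0% higher and 28.9% lower. None of the 8 clusters reached 2-fold with edgeR or DESeq2. The family's median was 0.11 on the log2 scale, and 0.18 without that cluster. Summed BELL FPKM was 64.66, 71.53 and 70.46 in fertile and 84.6, 85.43 and 85.34 in sterile libraries. Without the NPF5.6-like cluster the sum was 57.7 ± 3.56 against 72.5 ± 0.431 FPKM. The calls of this family depended on scale and on single libraries. Scaled by implied whole-library size, edgeR called 6 BELL clusters higher (5 without the NPF5.6-like cluster) and 0 lower. On that scale 62.6% of all regulators were called, 567 higher and 297 lower of 1380. At an unadjusted p under 0.05 on that scale 0 BELL clusters were lower, beside 315 regulators. DESeq2 called 2 higher and 1 lower, beside 716 of 1508 regulators. Without sterile replicate 3 only BLH7 and BLH9 were called, both higher.

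**Figure D2:**
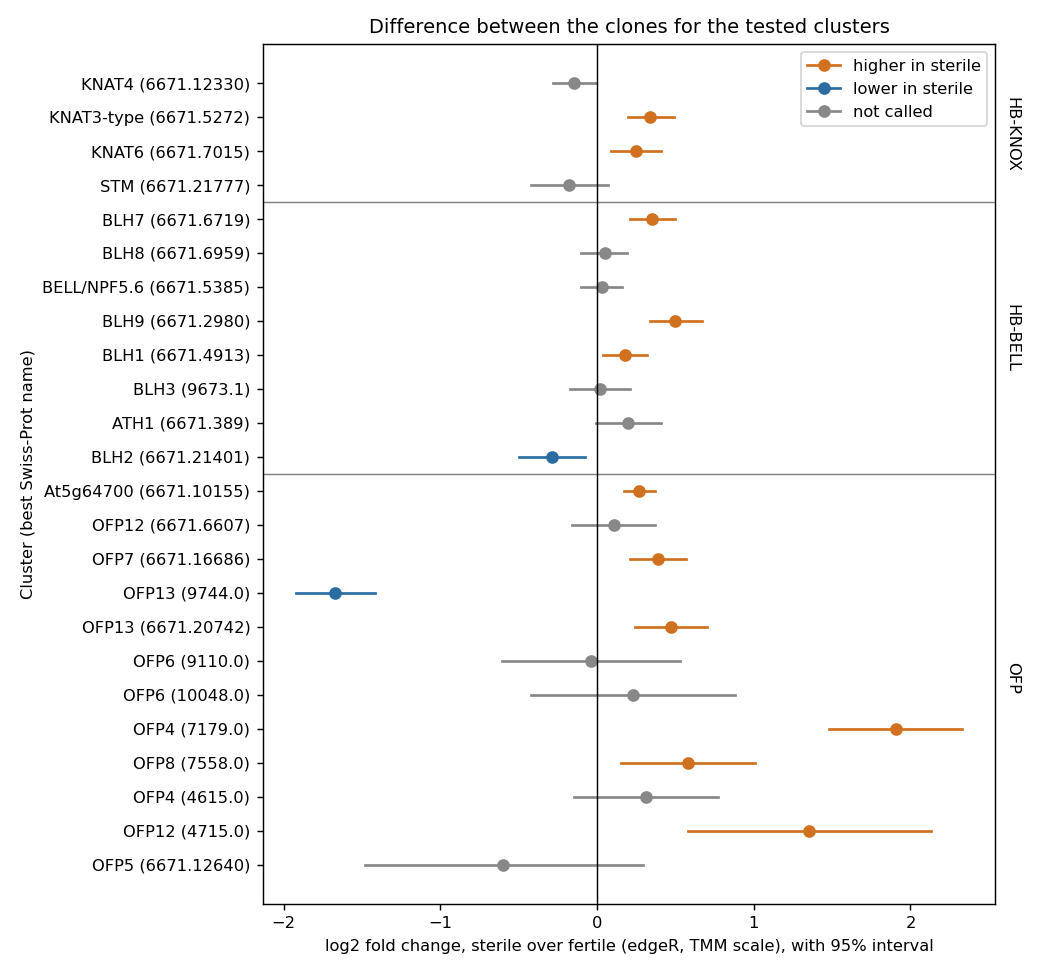
Log2 fold change of sterile over fertile buds (edgeR, TMM scale) for the 24 tested clusters, with 95% intervals as bars. KNOX and BELL clusters lie between -0.29 and 0.50, while OFP13 (Cluster-9744.0) lies at -1.67, OFP4 (Cluster-7179.0) at 1.91 and OFP12 (Cluster-4715.0) at 1.35. The call of BLH2 was lost on the whole-library scale.

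The OFP repressors held the large differences, in both directions. OFP13 (Cluster-9744.0) stood at 17.99, 18.09 and 16.49 FPKM in fertile and 5.42, 6.03 and 6.89 FPKM in sterile buds. All fertile libraries lay far above all sterile ones. By edgeR's fit it was 3.19-fold lower in sterile buds (log2 fold change -1.67 ± 0.12, adjusted p = 1.42e-09), with 1116 counts in the fertile and 285 in the sterile libraries. A second OFP13 cluster (Cluster-6671.20742), which matches another Prunus mume locus, stood at 7.1, 7.34 and 7.48 FPKM in fertile and 11.57, 10.32 and 11.94 FPKM in sterile buds. It was higher by 0.47 ± 0.11 on the log2 scale (edgeR adjusted p = 0.00143). The counts of both were whole in every library. The order of the OFP13 genes was reversed between the clones: the FPKM of the first was 2.53, 2.46 and 2.2 times that of the second in fertile libraries and 0.468, 0.584 and 0.577 times in sterile ones.

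OFP4 (Cluster-7179.0), whose Arabidopsis namesake binds KNAT7 and which is named OFP1-like in Prunus mume, stood at 0.99, 0.98 and 1.01 FPKM in fertile and 4.52, 4.69 and 3.35 FPKM in sterile buds. All sterile libraries lay above all fertile ones by a wide margin. It was 3.76-fold higher in sterile buds (log2 fold change 1.91 ± 0.20, edgeR adjusted p = 3.5e-07), with 89 counts in the fertile and 272.11 in the sterile libraries. The second OFP4 cluster (Cluster-4615.0) stood at 1.27, 1.57 and 1.42 against 1.87, 1.69 and 2.3 FPKM. Its difference of 0.31 ± 0.22 was not called (edgeR adjusted p = 0.243, 95% interval -0.15 to 0.77). The FPKM of the first was 0.78, 0.624 and 0.711 times that of the second in fertile and 2.42, 2.78 and 1.46 times in sterile libraries.

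OFP12 also named a pair of clusters. The low one (Cluster-4715.0) stood at 0.89, 0.42 and 0.49 FPKM in fertile and 1.96, 1.91 and 1.36 FPKM in sterile buds, on 32 and 67 counts. It was 2.56-fold higher (log2 fold change 1.35 ± 0.37, edgeR adjusted p = 0.0046), with a wide 95% interval of 0.58 to 2.13. Its fertile libraries had 16, 8 and 8 counts, and it passed the low-count filter only through its sterile libraries. The size of its fold change is therefore uncertain. Without that filter it was called higher at 1.32. The abundant one (Cluster-6671.6607) stood at 26.87, 20.67 and 20.03 FPKM in fertile and 24.91, 28.83 and 27.39 FPKM in sterile buds, and the clones overlapped through fertile replicate 1. Its fold change of 0.11 ± 0.12 was not called (edgeR adjusted p = 0.488), but without fertile replicate 1 it was called higher at 0.28.

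The remaining called OFP clusters were all higher in sterile buds. OFP7 (Cluster-6671.16686) stood at 11.17, 11.16 and 12.23 FPKM in fertile and 16.35, 17.17 and 16.87 FPKM in sterile buds, higher by 0.39 ± 0.09 on the log2 scale (edgeR adjusted p = 0.000762). OFP8 (Cluster-7558.0) stood at 1.82, 1.99 and 1.63 against 3.28, 3.01 and 2.87 FPKM. The clones did not overlap in either gene. The call of OFP8 (0.58 ± 0.21, edgeR adjusted p = 0.0225) was lost with DESeq2 (0.58), and also when fertile replicate 3 was left out (0.50) or either of sterile replicates 1 and 2 (0.56 each). The transporter-like Cluster-6671.10155 stood at 279.7, 282.27 and 285.94 FPKM in fertile and 382.34, 366.4 and 382.6 FPKM in sterile buds, higher by 0.27 ± 0.05 (edgeR adjusted p = 9.75e-05).

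Of the OFP clusters not called, 3 had the widest intervals. A pair of OFP6 clusters (Cluster-9110.0 and Cluster-10048.0) had mean levels of 3.04 to 4.03 FPKM in both clones, and their fold changes of -0.04 ± 0.27 and 0.23 ± 0.30 were not called, with 95% intervals of -0.61 to 0.53 and -0.42 to 0.88. Among the fertile libraries both were highest in replicate 1 (4.58 and 4.32 FPKM) and lowest in replicate 3 (1.96 and 1.91 FPKM). Without fertile replicate 1 the second was called higher at 0.59. OFP5 (Cluster-6671.12640), the least abundant tested OFP cluster, stood at 0.98, 0.72 and 0.41 against 0.63, 0.31 and 0.63 FPKM (-0.60 ± 0.42, not called, 95% interval -1.48 to 0.29). A second OFP7 cluster (Cluster-2235.0), with 24 counts in fertile and 22 in sterile libraries, fell below the low-count filter and was not tested.

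In the OFP family 6 clusters were higher, 1 lower and 5 not called of 12 tested, a share called of 58.3%. Without the transporter-like cluster 5 were higher and 1 lower of 11 (54.5%). Both shares lie close to the 57.0% called among all regulators, 28.0% higher and 28.9% lower. The family's median was 0.29 on the log2 scale, and 0.31 without that cluster. The transporter-like cluster took 79.9% ± 1.61 of the family's summed FPKM in fertile and 82.3% ± 0.385 in sterile buds. Without it the summed OFP FPKM was 78.18, 69.94 and 65.56 in fertile and 79.91, 80.74 and 82.32 in sterile libraries. Of that sum, OFP13 (Cluster-9744.0) took 24.7% ± 1.49 in fertile and 7.54% ± 0.796 in sterile buds. OFP12 (Cluster-6671.6607) took the largest share in both clones, 31.5% ± 2.54 and 33.4% ± 2.27.

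**Figure D3:**
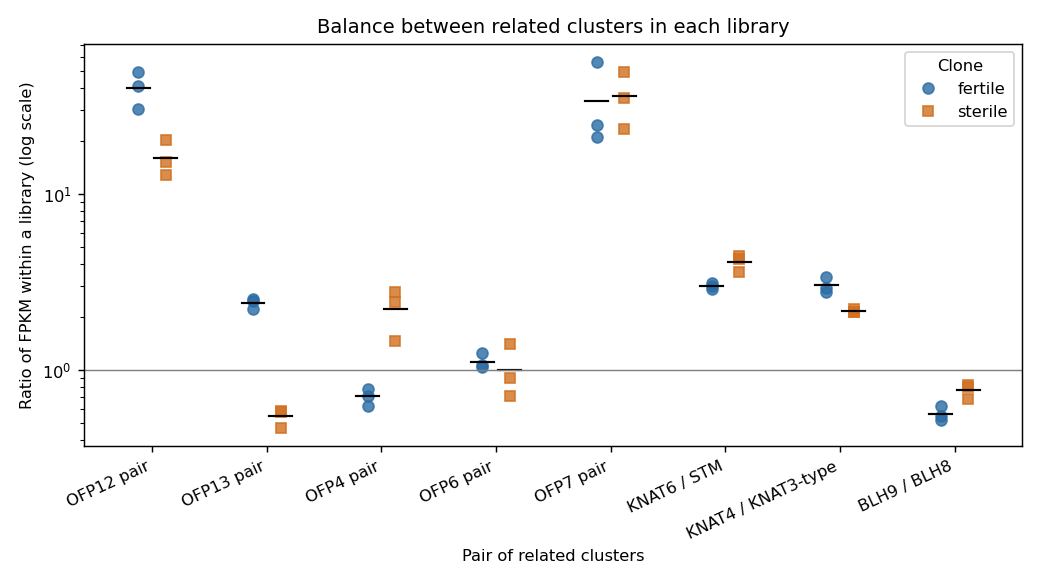
Ratio of the FPKM of related clusters within each library on a log axis (circles fertile, squares sterile, black lines means), with the more abundant cluster of a pair over the other, or as named. The OFP13 ratio lies at 2.4 ± 0.174 in fertile and 0.543 ± 0.0649 in sterile buds and the OFP4 ratio lies at 0.705 ± 0.0779 and 2.22 ± 0.682, while the OFP6 and OFP7 ratios overlap.

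Ratios were compared for 8 pairs, namely OFP clusters that share a Swiss-Prot name, the members of each KNOX class, and BLH9 with BLH8. This comparison was added after the values had been seen. In 6 of 8 pairs the clones did not overlap, beside 62.7% of all pairs of regulator clusters with FPKM above 0 in every library. Each of the 6 gave p = 0.1 in a two-sided exact permutation test, the smallest that 3 against 3 libraries allow, or 0.133 after adjustment over the pairs. For all 1508 regulators, the FPKM of the clones did not overlap in 65.1% of clusters, against 16 of 25 members.

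In the authors' deposited table, 3 members carried a flag of regulation, OFP4 (Cluster-7179.0) and OFP12 (Cluster-4715.0) as up and OFP13 (Cluster-9744.0) as down in sterile buds. Their log2 fold changes in the authors' deposited table were 1.99, 1.44 and -1.61. The flag does not mark every low q-value. Without a flag, the authors' q was under 0.05 for KNAT3-type, KNAT6, BLH1, BLH7, BLH9, OFP7, the second OFP13 cluster and the transporter-like cluster. BLH2 and OFP8, called by edgeR, had an authors' q of 0.267 and 0.119, from a test not named.

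Genes known to act upstream or beside KNOX, BELL and OFP proteins were described from a list of 38 clusters. Of 33 tested, 8 were higher in sterile buds, 9 lower and 16 not called, and their median was -0.07 on the log2 scale. This share of 51.5% called lies beside 57.0% for all regulators. The list pools groups that went different ways. Of the class I KNOX repressors, AS2 (Cluster-6671.21100) stood at 51.2 ± 2.76 FPKM in sterile and 0.88 ± 0.181 FPKM in fertile buds, a difference of 5.72 ± 0.11 on the log2 scale (edgeR adjusted p = 7.1e-17). Its partner AS1 stood at 41.6 ± 0.853 against 37 ± 0.77 FPKM and was not called (0.02 ± 0.06). Both boundary NAC factors, of the CUP-SHAPED COTYLEDON type that act with STM, were higher: NAC098 at 0.47 ± 0.09 and NAC031 at 0.52 ± 0.15 on the log2 scale.

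Of the MYB75 type, anthocyanin factors of which MYB75 binds KNAT7 in Arabidopsis, 3 of 3 tested clusters were lower, beside 28.9% lower among all regulators. A MYB113 cluster (0.91 ± 1.15 FPKM in sterile and 0.763 ± 0.724 FPKM in fertile buds) had too few counts to be tested. So had a MYB90 cluster (Cluster-7818.0, 0.457 ± 0.253 and 0.267 ± 0.166 FPKM). Both overlapped between the clones. MYB75 itself (Cluster-6671.4859) stood at 3.09 ± 0.671 FPKM in sterile and 11.3 ± 0.317 FPKM in fertile buds (-2.03 ± 0.14, edgeR adjusted p = 9.8e-10). A MYB90 cluster (Cluster-6671.14699) had 1 count in the sterile libraries, with 1.38 ± 0.461 FPKM in fertile buds. Among 12 tested secondary wall factors 3 were higher, 2 lower and 7 not called. The wall regulator NAC043 (NST1, Cluster-2801.0) stood at 1.74 ± 0.359 against 6.56 ± 0.68 FPKM (-2.07 ± 0.17, edgeR adjusted p = 1.27e-08) and MYB26 was at -0.95 ± 0.08, whereas MYB20 (4.28 ± 0.09) and NAC073 (0.75 ± 0.10) were higher. In the WUSCHEL and WOX group 1 of 6 was higher and 2 lower, with WOX1 at -1.08 ± 0.14, and WUS itself stood at 4.26 FPKM in both clones. Of 4 HD-ZIP III genes, which pattern vessels and organ polarity, 1 was lower and 3 were not called, and of 4 tested YABBY genes 1 was higher and 1 lower.

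Markers of tissues in a bud differed in part. Their counts of calls lie beside 28.0% higher and 28.9% lower among all tested regulators. The 7 tapetum clusters summed to 80.6 to 84.9 FPKM in fertile and 199.9 to 207.7 FPKM in sterile libraries, with 3 higher and 2 lower of 5 tested. Most of this gap lay in BHLH10 (Cluster-6671.15380), at 24.9 ± 0.87 against 135.3 ± 2.65 FPKM, and without it the sums were 56.71 to 59.63 against 67.09 to 69.65 FPKM. An AMS cluster (Cluster-6671.14745) and a MYB35 cluster (Cluster-6671.4670) were lower, at -0.28 and -0.68 on the log2 scale, and a second AMS cluster (Cluster-6671.7223) was higher at 0.52. MS1 was near 0 in fertile buds (0.0133 ± 0.0231 FPKM) and stood at 1.5 ± 0.516 FPKM in sterile buds. MS1 was called higher, at 6.44 ± 0.58 on the log2 scale (edgeR adjusted p = 4.43e-08). This rests on 2 counts in the fertile and 170 in the sterile libraries. MS1 passed the low-count filter only through the sterile ones, so the size of its fold change is uncertain. The 3 carpel and ovule clusters summed to 35.31 to 38.91 against 74.68 to 75.89 FPKM, with 2 of 2 tested higher. Nearly all of this sum was DL (Cluster-6671.7291), at 34.0 ± 1.89 against 69.9 ± 0.702 FPKM. AGL11 stood at 2.56 ± 0.188 against 4.55 ± 0.356 FPKM, and CRC had only 4 and 8 counts and was not tested. The 4 floral organ clusters summed to 244.58 to 255.67 against 236.29 to 251.59 FPKM, which overlap (2 higher, 2 lower). The 11 vascular and wall clusters summed to 75.44 to 85.48 against 79.93 to 81.06 FPKM, which also overlap. By edgeR 0 were higher and 2 lower (NAC043 and ATHB-8) of 10. At an unadjusted p under 0.05 edgeR had 0 higher and 3 lower, beside 421 higher and 429 lower of 1380 regulators. DESeq2 called 0 higher and 2 lower. All clusters of this set also belong to the secondary wall and HD-ZIP III groups above, so they give no separate result. The set leaves out the wall factors MYB20, NAC073 and NAC101 (Cluster-6671.15077, 0.49 ± 0.13), which were called higher, and MYB26, which was called lower. A NAC007 cluster (Cluster-208.0) was at 0 in all fertile libraries, but had only 6 counts in the sterile ones and was not tested. The other NAC007 clusters averaged 1.07 and 2.16 FPKM in fertile and 0.893 and 1.87 FPKM in sterile buds, and were not called. The green tissue factor GLK2 stood at 10.9 ± 0.576 against 13 ± 1.23 FPKM and was not called. The part of these tissues in the KNOX, BELL and OFP differences was not tested.

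**Figure D4:**
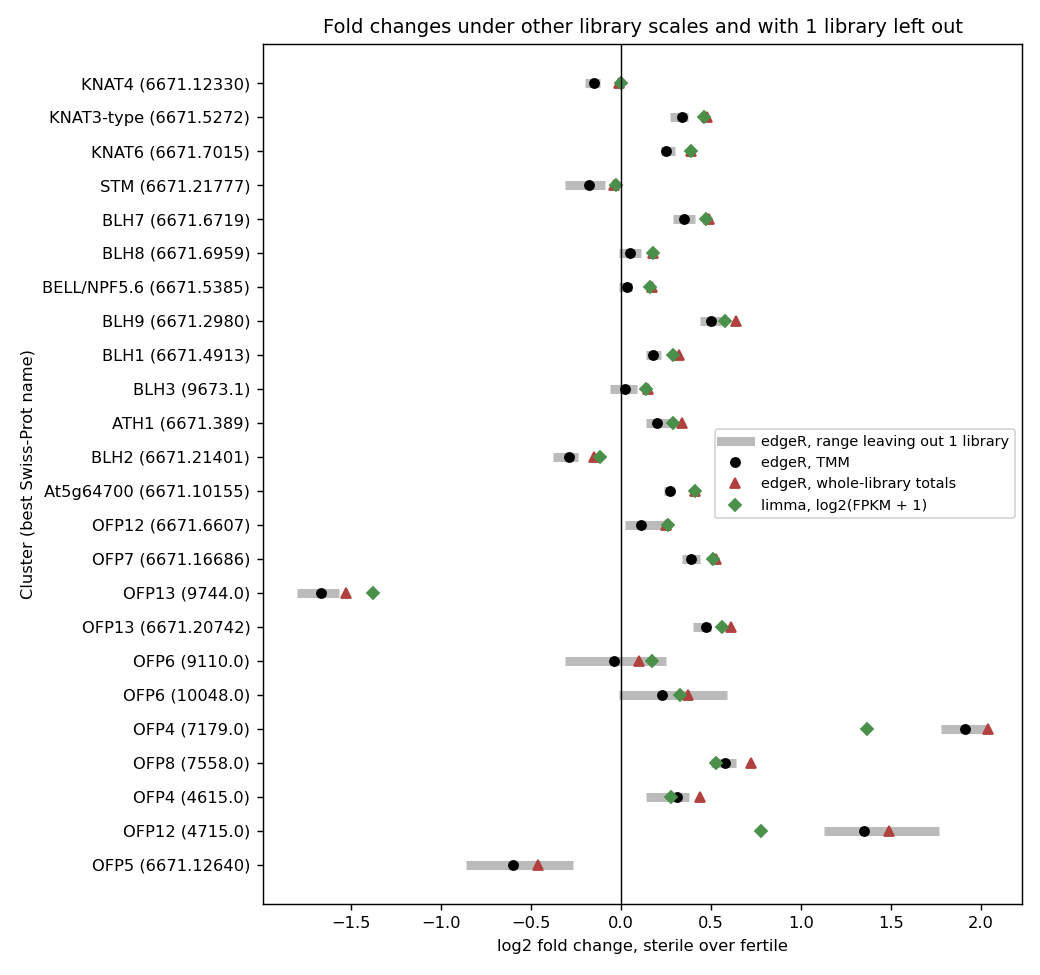
Log2 fold change of sterile over fertile buds for the 24 tested clusters under TMM scaling (black circles), whole-library totals (triangles) and limma on log2(FPKM + 1) (diamonds, drawn where the FPKM filter was passed), with grey bars for the range when 1 library is left out. Whole-library totals move each point up by about 0.14, and no called member changes side of 0.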

How the data were processed

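Per the labels' protocols, total RNA of ground buds was sequenced from standard Illumina libraries. The submitters' processing notes list CASAVA, Bowtie2 and RSEM; the sources used here give neither their roles nor an assembler or genome build. The authors deposited estimated counts, which need not be whole, for 1508 regulator clusters, and FPKM values for these and for 34377 clusters in all, per the file headers. The same table holds the authors' own deposited log2 fold change and q-value, per the file headers, with no test named.

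Estimated counts were rounded for edgeR 4.0.16 in R 4.3.3. The low-count filter (filterByExpr, minimum count 10) dropped 128 clusters with 0.0424% of the counts. Libraries were scaled by TMM, and a robust quasi-likelihood fit (glmQLFit, glmQLFTest) was adjusted by Benjamini-Hochberg over 1380 clusters. Standard errors are the fold change over the root of F. Whole-library totals came from a robust fit of the count-to-FPKM ratio against length, using clusters that had 50 counts and FPKM 5 or more. Alternatives were DESeq2 1.42.0, other library scales, no filter, a replicate block, leaving out each library, and limma 3.58.1 on log2(FPKM + pseudocount) over the FPKM table. Scripts were tested on simulated data.

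Values per library were given for called members and the 2 most abundant of each family, and up to 8 called genes of the list were named by size, with means or fold changes. STM, Cluster-4615.0, OFP5, the 2 knotted-like clusters outside the family, AS1, NAC098, NAC031 and WUS were named outside that rule. Members and lists were chosen with earlier results of these data known. No sequences of the clusters were used here.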

Additional observations from a re-analysis of the deposited data

How the results depend on the processing

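Of the 13 called members, KNAT3-type, KNAT6, BLH7, BLH9, OFP4, OFP7, both OFP13 clusters, the low OFP12 cluster and the transporter-like cluster kept direction and call under all 15 alternatives, and BLH1, BLH2 and OFP8 did not. Leaving out 1 library gave 2 to 4 calls in HB-KNOX (4 without sterile replicate 3, against 2), 2 to 4 in HB-BELL (2 without sterile replicate 3, against 4), 6 to 9 in OFP and 703 to 906 over all regulators. Among members not called, signs around 0 turned for KNAT4 with limma (0.00 at each pseudocount), for BLH3 without the low-count filter (-0.02), and for OFP6 (Cluster-9110.0) with whole-library totals (0.10), the replicate block (0.00) and limma (0.17, 0.22 and 0.08 with pseudocounts 1, 0.1 and 5, and 0.17 without the filter). With 1 library left out the ranges were -0.01 to 0.11 for BLH8, -0.01 to 0.06 for the NPF5.6-like cluster, -0.06 to 0.09 for BLH3 (-0.03 without fertile replicate 1), -0.31 to 0.25 for OFP6 (Cluster-9110.0; 0.02 without sterile replicate 3) and -0.01 to 0.59 for OFP6 (Cluster-10048.0), and the cause was not tested. Limma with a pseudocount of 5 gave 0.61 for OFP4 (Cluster-7179.0) and 0.27 for OFP12 (Cluster-4715.0), lower by construction at low FPKM. Replicate numbers are shared by the clones, but same-numbered libraries did not deviate together (correlations 0.009 to 0.027), and not every library correlated best with its own number. The replicate block gave 2, 4 and 7 calls in the families, as without it, and 781 over all regulators. For the low OFP clusters, 3 counts at 1500 bases are 0.0791 to 0.123 FPKM, counting error only.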
